A study of Mus musculus with 6 samples.

Results

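The hypoxia response of lung ECs was read from 10 genes of the 47729 in the count tables. The 10 genes, chosen by name, were the hypoxia-inducible factor genes Hif1a and Epas1, the oxygen-sensing hydroxylase genes Egln1 and Egln3, and the target genes Slc2a1, Ldha, Pgk1, Bnip3, Adm and Ankrd37. The study asked how deletion of leene, the putative mouse counterpart of the human lncRNA LEENE, affects ECs during hypertension induced by angiotensin II (AngII), a vasoconstrictor peptide. WT and leene-KO mice on a C57BL6 background were compared, and both genotypes received AngII, so the effect of AngII itself could not be read from these libraries. All were males, given as 14 weeks old and on normal chow, with AngII at 1000 ng/kg/min delivered by an implanted pump over 2 weeks.

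The KO is a deletion present in every cell of the mouse. It removes a region that encodes leene and other lncRNAs. The annotation behind the counts held 0 of the 3 lncRNAs of that region, and each genotype is therefore the one given by the labels. The labels describe CD31-enriched lung cells from 3 mice per group that were pooled, whereas the study's methods name CD144 as the selection antigen. Since it is not settled whether a library is 1 mouse or a draw from a pool, p-values measure the spread between libraries, which may be technical.

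The 3 WT and 3 KO libraries held 24464324 to 35184063 counts, of which mitochondrial genes took 37.4% to 54.5%. Values are CPM, counts scaled to a common library size by edgeR's trimmed mean of M-values (TMM), and ± gives the SD over 3 libraries. The 13 endothelial markers were present in every library, with a summed level of 2156 to 3865 CPM in WT and 2494 to 4002 CPM in KO. Pecam1, the gene of CD31, lay at 313, 440 and 582 CPM in WT and 563, 379 and 449 CPM in KO. The libraries also held RNA of other lung cells. The surfactant gene Sftpc of alveolar type II cells lay at 2051, 24029 and 7562 CPM in WT replicates 1 to 3 and at 19809, 23835 and 19840 CPM in KO. WT replicate 2 stood apart from the other WT libraries and lay on the side of the KO libraries on the first principal component (scores of -63.4, 22.2 and -29.4 in WT and 21.7, 35.4 and 13.4 in KO), so values that move by more than 1.5 times or change call without it are also given without it. That library was singled out by these same data. Leaving out a WT library on the side of KO sets the groups further apart, so calls from that fit are not separate support. WT replicate 1 had the most extreme score on that component. Its TMM scaling factor was 1.37, where those of the other libraries were 0.874 to 1.04. In such bulk samples, fewer cells of a type and less RNA per cell cannot be told apart.

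Hypoxia-inducible factors are dimers of an oxygen-regulated alpha subunit, made from Hif1a or Epas1, and a stable beta subunit made from Arnt. In oxygen, the prolyl hydroxylases made from Egln1 and Egln3 mark the alpha subunit for ubiquitination by the VHL complex and for degradation. When oxygen falls, the dimer binds a short DNA core near its target genes and raises transcription of glucose transport, glycolysis, mitophagy and vasoactive genes. Because the alpha subunits are controlled mainly as proteins, their mRNA levels do not report their activity. Epas1, whose product is also called HIF2A, is known for its high level in lung endothelium.

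The core bound by these factors is ACGTG or GCGTG, and it was searched on both strands, where it also reads CACGT or CACGC. RefSeq promoter windows of the GRCm38.p6 build, each running from 250 bases before to 50 bases after a gene start, were found for 9 of the 10 genes. Ldha had 2 windows and Epas1 was the gene with none. All 10 windows held at least 1 core in their first 250 bases (100%), compared with 12679 of 32851 windows over all genes (38.6%). In 8 of the 10 (80.0%) there were 2 or more separate stretches of core sequence, against 13.4% of all windows. Matches that overlapped each other were counted as 1 stretch. Since the genes were chosen as known factors and targets of this pathway, a high share could be foreseen. Windows over all genes were not matched to theirs in base composition, and Ldha counts with 2 windows. These shares are therefore a description and no test of enrichment. A match is a description of the letters and does not show that a factor was bound. In 4 of the 10 genes the WT and KO libraries did not overlap and KO was lower, which held for 9.2% of all genes tested. Shown next are the promoters of these 4 genes, each free of annotated exons and written 5′ to 3′ along the gene, with cores in capitals.
Hif1a: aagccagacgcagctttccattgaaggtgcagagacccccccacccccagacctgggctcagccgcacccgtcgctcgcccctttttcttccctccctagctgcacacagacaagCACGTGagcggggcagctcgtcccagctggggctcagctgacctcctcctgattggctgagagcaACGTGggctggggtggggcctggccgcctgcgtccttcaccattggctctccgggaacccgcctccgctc
Egln1: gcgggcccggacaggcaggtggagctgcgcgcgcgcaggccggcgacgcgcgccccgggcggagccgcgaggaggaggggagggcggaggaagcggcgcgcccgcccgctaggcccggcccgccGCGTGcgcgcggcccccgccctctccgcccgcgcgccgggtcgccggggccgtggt
Ldha: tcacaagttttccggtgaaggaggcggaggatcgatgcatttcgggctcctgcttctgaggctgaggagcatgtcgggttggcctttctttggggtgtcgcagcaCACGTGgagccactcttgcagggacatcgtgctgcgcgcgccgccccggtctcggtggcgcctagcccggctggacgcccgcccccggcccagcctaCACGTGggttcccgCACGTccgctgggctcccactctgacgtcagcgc
Bnip3: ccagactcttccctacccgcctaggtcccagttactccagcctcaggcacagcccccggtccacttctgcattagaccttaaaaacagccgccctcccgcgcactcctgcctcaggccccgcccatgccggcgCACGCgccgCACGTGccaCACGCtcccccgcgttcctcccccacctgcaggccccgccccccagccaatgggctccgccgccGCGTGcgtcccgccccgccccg

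The Hif1a stretch is chr12:73907617-73907866 on the plus strand, within an intron of the longest annotated Hif1a transcript, and holds 2 core stretches. That of Egln1 is chr8:124949325-124949504 on the minus strand, upstream of the gene, and holds 1 of the 2 in its window. It stops where an exon annotated by GENCODE begins, upstream of the RefSeq start, and the gene of that exon was not recorded. The Ldha stretch, chr7:46845554-46845803 on the plus strand and intronic in the longest Ldha transcript, carries 3 core stretches, and in 2 of them the cores of both strands overlap as the palindrome CACGTG. A downstream Ldha start, with its stretch at chr7:46846832-46847081, had 1. The Bnip3 stretch is chr7:138909520-138909756 on the minus strand, directly upstream of the gene, and carries 4.

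The level of each gene per kilobase of exon (RPKM, computed from the same scaled counts) spanned more than 3 orders of magnitude. Epas1 was the highest, with a mean of 1261 RPKM over the 6 libraries and a range of 1026 to 1523. It ranked number 24 by mean RPKM among all 47729 genes in the count tables and took 0.852% to 1.77% of the non-mitochondrial counts of a library. Ldha followed with 24.7 RPKM (19.7 to 30.6), Egln1 with 18.4 (17.7 to 19.4), Slc2a1 with 6.54 (2.60 to 13.3) and Hif1a with 5.49 (4.77 to 6.84). Lower still were Bnip3 at 3.52 RPKM (2.85 to 4.82), Pgk1 at 1.63 (0.934 to 2.73), Ankrd37 at 1.45 (1.01 to 1.97), Egln3 at 0.866 (0.517 to 1.56) and Adm at 0.820 (0.531 to 1.29). The ranges of neighbours in this order did not overlap between Epas1 and Ldha, Ldha and Egln1, Egln1 and Slc2a1, or Bnip3 and Pgk1. All other neighbours overlapped, so their order is not settled by these libraries. The level of Pgk1 is uncertain, since reads shared with near-identical copies such as Pgk1-rs7 and Pgk1-ps3 were dropped in counting, and the same holds for Ldha with Ldha-ps and Ldha-ps2.

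**Figure D1:**
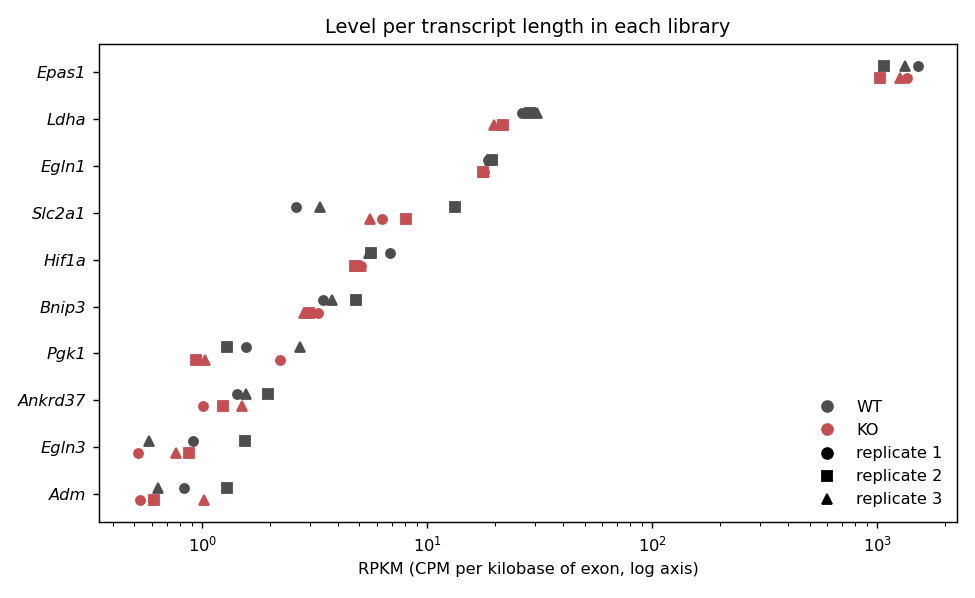
Level of each gene per kilobase of exon (RPKM, log axis) in each library, with WT in grey and KO in red and the marker shape giving the replicate number. Epas1 lies between 1026 and 1523 RPKM, apart from the other 9 genes, of which the highest single value is 30.6 for Ldha.

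None of the 10 genes passed the test for a difference between genotypes. All 10 were tested, and the quasi-likelihood test of edgeR, with p-values adjusted by Benjamini and Hochberg over 14625 genes, called 0 of them at an adjusted p under 0.05, where it called 0.109% of all genes (16 genes, 5 higher and 11 lower in KO). DESeq2 also called 0 of the 10, against 1.21% of the genes it tested. At an unadjusted p under 0.05 there was 1 gene of the 10, Ldha, against 10.3% of all genes. The fitted log2 fold change of KO over WT was below 0 for 9 of the 10, against 45.9% of all genes, with a median of -0.37 where the median of all genes was 0.03. In 4 of the 10, namely Hif1a, Egln1, Ldha and Bnip3, every KO library was below every WT library, which held for 9.2% of all genes in that direction and for 17.8% in either direction. The 10 genes share regulators, and they were chosen with earlier results of these data known, so no test was made over them as a list.

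**Figure D2:**
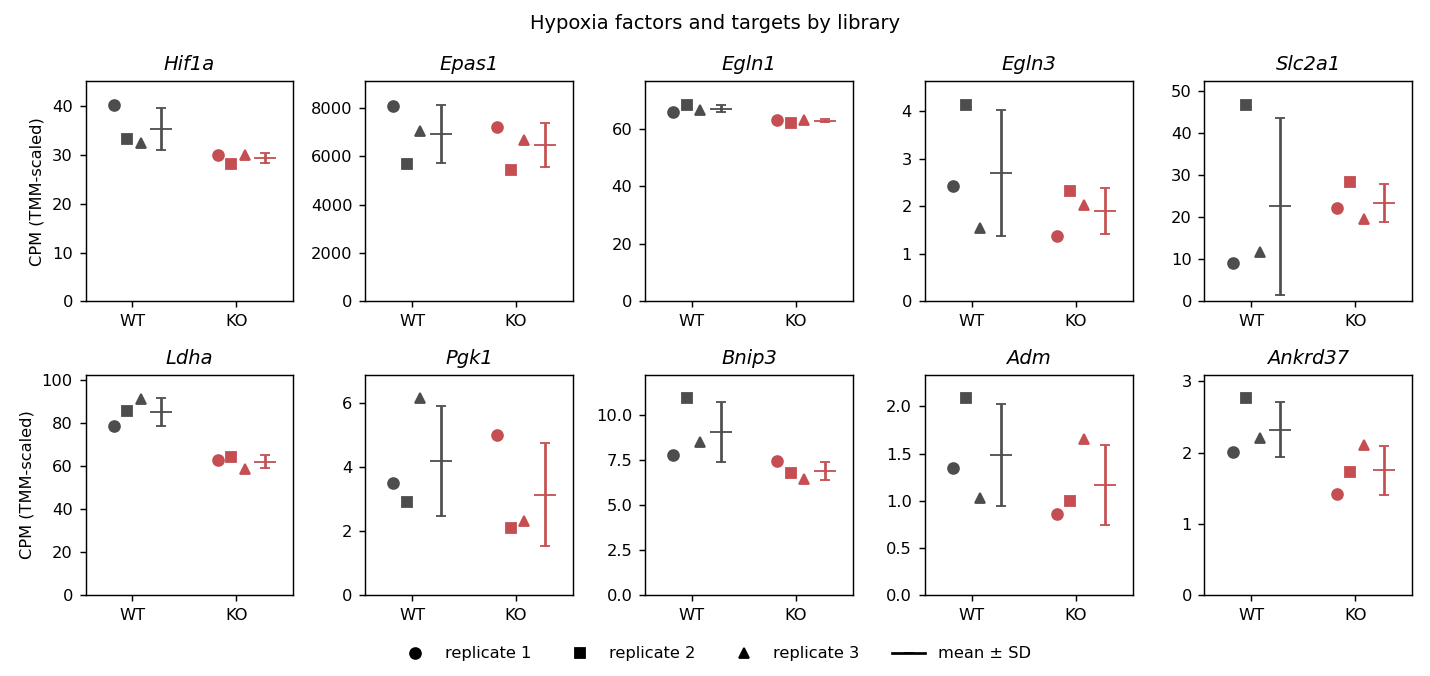
CPM of the 10 genes in each of the 3 WT (grey) and 3 KO (red) libraries, each panel with its own axis from 0, with a bar for the mean ± SD. The groups do not overlap for Hif1a, Egln1, Ldha and Bnip3, and WT replicate 2 (square) is the highest library for Egln1, Egln3, Slc2a1, Bnip3, Adm and Ankrd37.

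Hif1a encodes the broadly expressed alpha subunit (ENSMUSG00000021109, chr12:73901375-73947530 on the plus strand of GRCm38). It lay at 40.3, 33.2 and 32.5 CPM in WT replicates 1 to 3 and at 30.0, 28.1 and 30.0 CPM in KO. The lowest WT library was above the highest KO library, and WT replicate 1 was set off from the other 5. The means were 35.3 ± 4.33 CPM in WT and 29.4 ± 1.10 CPM in KO (n = 3 each), a log2 fold change of -0.27 (SE 0.13, 95% interval -0.57 to 0.04) with an adjusted p of 0.516 in edgeR's test. It rested on 693 to 1647 counts per library, and without WT replicate 1 the log2 fold change was -0.17.

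Epas1, the alpha subunit gene typical of endothelium (ENSMUSG00000024140, chr17:86753907-86833410, plus strand), stood at 8088, 5685 and 7037 CPM in WT and at 7225, 5445 and 6684 CPM in KO. The groups overlapped, and replicate 2 was the lowest library in each genotype. With means of 6937 ± 1204 CPM in WT and 6451 ± 912 CPM in KO, the log2 fold change was -0.10 (SE 0.36, 95% interval -0.94 to 0.73; edgeR adjusted p = 0.930). Without WT replicate 1 it was 0.02, so its sign rests on that library, and without WT replicate 2 it was -0.27.

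Epas1 mRNA exceeded Hif1a mRNA in every library, by 190.0-fold to 267-fold per length (median 232). The log2 ratio of Hif1a to Epas1 counts, which does not depend on library scaling, was -7.65, -7.42 and -7.76 in WT and -7.91, -7.60 and -7.80 in KO. These ratios overlapped, and the KO mean was lower by a log2 difference of -0.16 (exact permutation test, two-sided, p = 0.4, where 3 against 3 libraries cannot go below 0.1). It ran from -0.25 without KO replicate 2 to -0.07 without WT replicate 2, with -0.09 without KO replicate 1. Relative to the mean log2 level of the 13 endothelial markers, Epas1 lay at 6.11, 5.24 and 4.93 in WT and at 4.94, 5.19 and 5.12 in KO on the log2 scale. WT replicate 1 was the highest library in this measure, since it combined the most Epas1 with the lowest endothelial marker CPM, and the difference of -0.34 had an exact permutation p of 0.5. Without WT replicate 1 the difference was -0.0017.

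**Figure D3:**
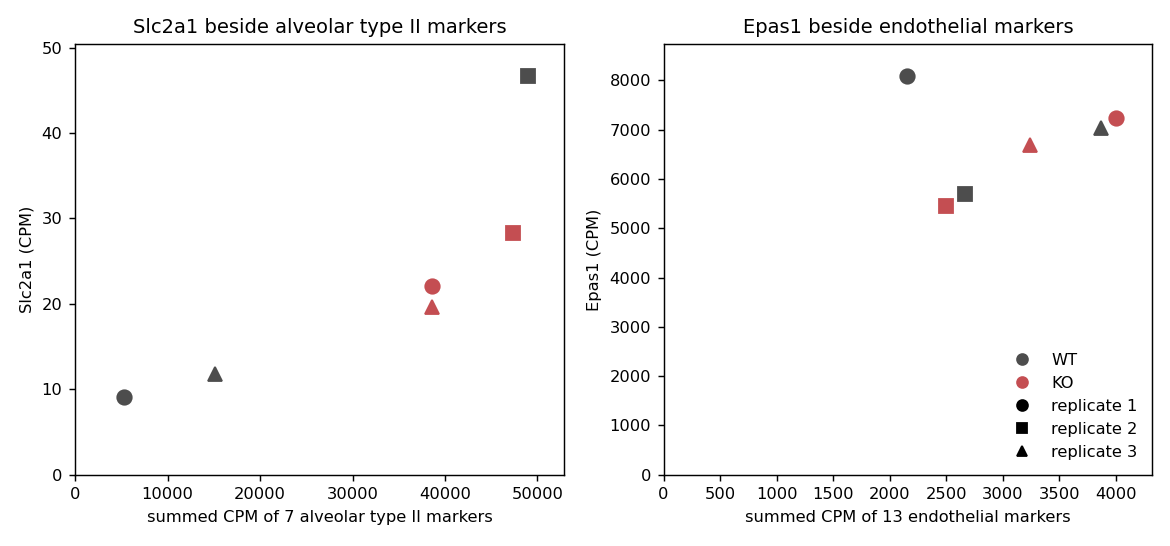
Left, Slc2a1 (CPM) against the summed CPM of 7 alveolar type II markers. Right, Epas1 (CPM) against the summed CPM of 13 endothelial markers. Each point is 1 library, WT in grey and KO in red, and on the left WT replicates 1 and 3 have the lowest values on both axes while WT replicate 2 has the highest.

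By their profile over the 6 libraries, 3 genes were named as nearest to each alpha subunit gene, among 8012 others with a mean log2 CPM above 3. The measure was the largest difference in any library between centred log2 CPM values. Nearest to Hif1a were Pacsin2 (0.05), Ankhd1 (0.05) and Card10 (0.05), and nearest to Epas1 were Sox7 (0.06), Zcchc2 (0.07) and Sipa1l1 (0.07). Sox7 encodes a transcription factor of endothelium. Its own levels were 123, 88.5 and 103 CPM in WT and 107, 78.3 and 105 CPM in KO, which follows the order of Epas1 in having replicate 2 lowest in each genotype. With so many genes compared over 6 libraries, close profiles are easy to find.

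Egln1 makes the main oxygen sensor of the pathway, the prolyl hydroxylase PHD2 (ENSMUSG00000031987, chr8:124908596-124949254, minus strand). Its levels were the most even of the 10 genes, at 65.8, 68.3 and 66.6 CPM in WT and 63.1, 62.1 and 62.8 CPM in KO. All KO libraries were below all WT libraries, but by little. The means of 66.9 ± 1.28 and 62.7 ± 0.516 CPM gave a log2 fold change of -0.09 (SE 0.11, 95% interval -0.35 to 0.16) and an adjusted p of 0.762 in edgeR's test.

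Egln3, which makes the hydroxylase PHD3 and is itself a target of the factors (ENSMUSG00000035105, chr12:54178981-54203860, minus strand), was scarce at 32 to 141 counts. It lay at 2.42, 4.14 and 1.55 CPM in WT and 1.38, 2.32 and 2.04 CPM in KO. WT replicate 2 was the highest library and WT replicate 3 was below 2 of the KO libraries. The log2 fold change was -0.51 (SE 0.40, edgeR adjusted p = 0.653), and it ran from -0.79 without WT replicate 3 to -0.11 without WT replicate 2.

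Slc2a1, the gene of the glucose transporter GLUT1 (ENSMUSG00000028645, chr4:119108711-119137983, plus strand), had the largest SD relative to its mean among WT libraries of the 10 genes. It lay at 9.13, 46.7 and 11.8 CPM in WT replicates 1 to 3 and at 22.1, 28.3 and 19.6 CPM in KO. WT replicate 2 was above all KO libraries and the other WT libraries were below all of them. The means of 22.5 ± 21.0 CPM in WT and 23.3 ± 4.50 CPM in KO gave a log2 fold change of 0.05 (SE 0.57, 95% interval -1.27 to 1.37; edgeR adjusted p = 0.982), whose sign turned under scaling by total counts (-0.039) and without WT replicate 1 (-0.34), WT replicate 3 (-0.26) or KO replicate 2 (-0.13).

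Without WT replicate 2, Slc2a1 was called higher in KO by edgeR's test, with a log2 fold change of 1.13 (SE 0.21) and an adjusted p of 0.0321. The same fit called 4.41% of all genes higher in KO, so this call is 1 of 660. The call is not separate support, since WT replicate 2 was singled out by these same data. The summed level of 7 alveolar type II markers was 5239, 48962 and 15162 CPM in WT replicates 1 to 3 and 38646 to 47368 CPM in KO. Slc2a1 and these markers had the same order of the 6 libraries, with WT replicate 2 highest and WT replicates 1 and 3 lowest, KO replicates 1 and 3 being level in the markers. The part of alveolar type II RNA in the level of Slc2a1 was not tested.

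Ldha, the lactate dehydrogenase subunit that turns pyruvate into lactate (ENSMUSG00000063229, chr7:46841475-46855627, plus strand), had the smallest p of the 10 genes. It lay at 78.6, 85.7 and 91.4 CPM in WT and at 63.1, 64.5 and 58.8 CPM in KO. The groups were well apart, with the lowest WT library above the highest KO library by more than the whole range of KO. The means of 85.2 ± 6.39 and 62.1 ± 3.00 CPM gave a log2 fold change of -0.46 (SE 0.12, 95% interval -0.74 to -0.17). Its unadjusted p in edgeR's fit across all genes was 0.00684 and its adjusted p 0.318, with 0.117 in DESeq2, so it did not pass. Over the alternatives tried, the adjusted p ran from 0.0845, without WT replicate 2, to 0.734.

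Pgk1 encodes the glycolytic enzyme phosphoglycerate kinase (ENSMUSG00000062070, chrX:106187100-106203699, plus strand). Its 57 to 143 counts gave 3.50, 2.91 and 6.13 CPM in WT and 4.99, 2.10 and 2.31 CPM in KO. The libraries of the genotypes were mixed, with WT replicate 3 and KO replicate 1 highest. The log2 fold change was -0.41 (SE 0.42, edgeR adjusted p = 0.729), and leaving out single libraries moved it between -0.94 and -0.06, with -0.65 without WT replicate 2.

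Bnip3 makes a mitochondrial receptor for mitophagy (ENSMUSG00000078566, chr7:138890836-138909519, minus strand). It lay at 7.76, 10.9 and 8.52 CPM in WT and at 7.44, 6.77 and 6.45 CPM in KO. Each KO library was below each WT library, though KO replicate 1 was close to WT replicate 1. Means of 9.07 ± 1.65 and 6.88 ± 0.503 CPM gave a log2 fold change of -0.40 (SE 0.18, 95% interval -0.82 to 0.02; edgeR adjusted p = 0.498).

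Adm encodes adrenomedullin, a vasodilator peptide (ENSMUSG00000030790, chr7:110627661-110629820, plus strand), and was the lowest of the 10 genes at 20 to 71 counts. It lay at 1.35, 2.08 and 1.03 CPM in WT and at 0.860, 0.993 and 1.66 CPM in KO. The groups overlapped, and the log2 fold change of -0.35 (SE 0.42, edgeR adjusted p = 0.768) ran from -0.69 without KO replicate 3 to -0.07 without WT replicate 2. Ankrd37, an ankyrin repeat gene known as a target of these factors (ENSMUSG00000050914, chr8:45996902-45999867, minus strand), lay at 2.01, 2.76 and 2.20 CPM in WT and at 1.42, 1.73 and 2.10 CPM in KO. The KO library closest to WT, replicate 3, was above WT replicate 1, and the log2 fold change was -0.40 (SE 0.29, edgeR adjusted p = 0.631). Ankrd37 overlaps Ufsp2 and Lrp2bp on the other strand, and the counting used strand.

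**Figure D4:**
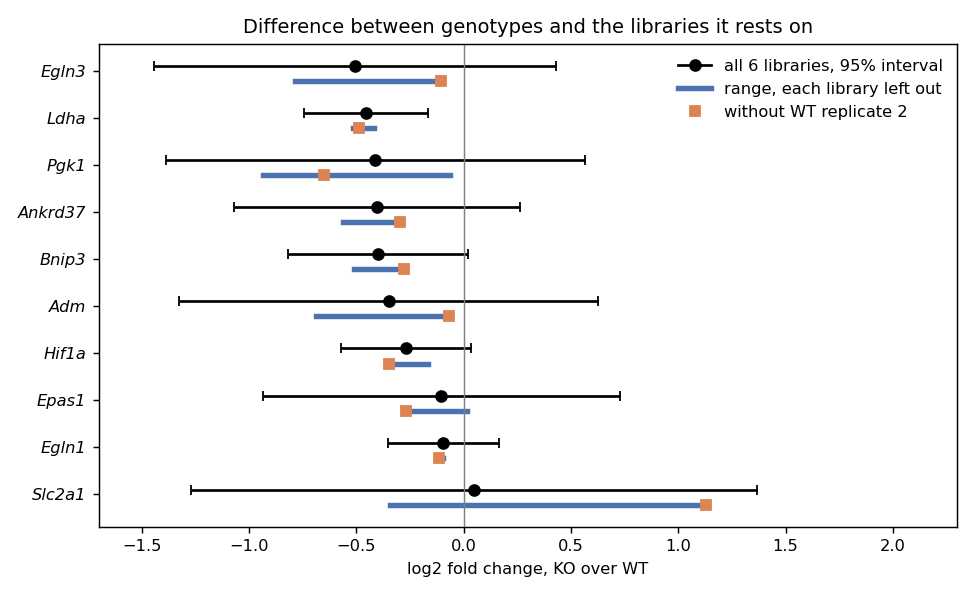
Log2 fold change of KO over WT for the 10 genes (black point with its 95% interval, all 6 libraries), the range when each library is left out in turn (blue bar) and the value without WT replicate 2 (orange square). Of the 10 intervals only that of Ldha, -0.74 to -0.17, leaves out 0, and Slc2a1 moves from 0.05 to 1.13 without WT replicate 2.

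Other genes of the pathway were read from 4 lists that hold 72 genes. Of these, 70 were tested, the exceptions being Epo with no count in any library and Car12, which was under the filter on low counts. By edgeR's test 0 of the 70 were called, against 0.109% of all genes, and 14 had an unadjusted p under 0.05 (9 lower and 5 higher in KO), against 10.3% of all genes. DESeq2 called 3, all lower in KO, namely Hif3a, Ndrg1 and Ddit4, against 1.21% of all genes it tested. The median log2 fold change of the 70 was -0.13, and 42 were below 0, against 45.9% of all genes. Without WT replicate 2, edgeR's test called 6 of the 70, against 5.29% of all genes in that fit. Slc2a3, Slc16a1 and the transferrin receptor gene Tfrc (log2 fold change 2.13, adjusted p = 0.0295) were higher in KO in that fit, and Ddit4, Pfkl and Jmjd6 (-0.74, adjusted p = 0.0496) were lower. With all 6 libraries the groups overlapped for Tfrc, at 1.23 (SE 0.58, edgeR adjusted p = 0.508). Jmjd6 was then at -0.68 (SE 0.15, edgeR adjusted p = 0.259). Tfrc and Jmjd6 were named after their values were seen.

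The machinery list held the other alpha and beta subunits, the VHL complex, the remaining hydroxylases and coactivators. It also held Cited2, whose product competes with the alpha subunits for coactivators. Of its 13 genes, 12 were fitted below 0, with a median of -0.15, and 4 had groups that did not overlap, all lower in KO. Over all genes 45.9% were fitted below 0 and 9.2% were apart and lower. Hif3a, an alpha subunit gene whose products can restrain the others, lay at 1.30, 3.96 and 0.796 CPM in WT and at 0.387, 0.184 and 0.586 CPM in KO. WT replicate 2 carried most of its WT mean, and its log2 fold change was -2.38 (SE 0.71), with an adjusted p of 0.364 in edgeR and 0.0498 in DESeq2. Without that library it was -1.48 (SE 0.59, edgeR adjusted p = 0.198). Hif1an, the asparaginyl hydroxylase that blocks coactivator binding, lay at 73.4, 49.9 and 54.5 CPM in WT and 45.5, 41.6 and 45.3 CPM in KO (log2 fold change -0.43, SE 0.17, edgeR adjusted p = 0.466), and without WT replicate 1 its log2 fold change was -0.25.

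The glycolysis and lactate list had members on both sides. Of 21 genes, 11 were fitted below 0, the median was -0.02, and 4 were apart in each direction, against 9.2% of all genes apart and lower in KO and 8.59% apart and higher. Of the 4 lower in every KO library, the 2 with the lowest log2 fold change were Pfkl, a phosphofructokinase subunit (log2 fold change -0.54, SE 0.16, edgeR adjusted p = 0.365), and Pfkfb3, which makes the activator of phosphofructokinase (-0.41, SE 0.16, adjusted p = 0.455). Of the 4 higher in every KO library, Pdk1 had the smallest p of the list (0.54, SE 0.12, edgeR adjusted p = 0.259) and was named after its values were seen. The 2 with the highest log2 fold change were the transporters Slc2a3, or GLUT3, and Slc16a1, the lactate carrier MCT1. Slc2a3 lay at 3.53, 6.43 and 3.84 CPM in WT and 9.33, 7.17 and 7.59 CPM in KO (log2 fold change 0.80, SE 0.26, adjusted p = 0.388). Slc16a1 lay at 8.45, 29.9 and 19.3 CPM in WT and 37.1, 39.8 and 33.6 CPM in KO (0.94, SE 0.39, adjusted p = 0.476). Like Slc2a1, Slc16a1 was highest among the WT libraries in replicate 2. Without WT replicate 2, edgeR's test called Slc2a3 (1.09, adjusted p = 0.0343) and Slc16a1 (1.39, adjusted p = 0.0471) higher and Pfkl (-0.70, adjusted p = 0.0404) lower in KO. Without WT replicate 1, Slc16a1 was at 0.57.

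Among 33 other targets, 31 of them tested, 16 were fitted below 0 and the median was -0.03, with 5 apart and lower in KO and 2 apart and higher. Over all genes 45.9% were fitted below 0, 9.2% were apart and lower and 8.59% were apart and higher. Ddit4, an inhibitor of mTORC1 signalling, lay at 18.7, 24.7 and 22.1 CPM in WT and at 7.18, 10.9 and 7.93 CPM in KO. Every WT library was well above every KO library, the log2 fold change was -1.33 (SE 0.20), and the adjusted p was 0.0852 in edgeR and 8.73e-06 in DESeq2. Without WT replicate 2 edgeR's test called it too, at -1.27 with an adjusted p of 0.0245. Ndrg1, a gene induced by hypoxia and other stress, lay at 62.8, 79.9 and 46.5 CPM in WT and 29.0, 36.7 and 36.4 CPM in KO (log2 fold change -0.89, SE 0.21, adjusted p = 0.274 in edgeR and 0.0213 in DESeq2). On the other side, Cxcr4, the receptor for Cxcl12, lay at 8.15, 22.5 and 23.1 CPM in WT and at 43.4, 32.3 and 39.6 CPM in KO (log2 fold change 1.10, SE 0.36, edgeR adjusted p = 0.388). Nos2, the inducible nitric oxide synthase, also lay higher in every KO library (0.86, SE 0.29, adjusted p = 0.411).

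The list built around the receptors for adrenomedullin held 5 genes, not all of them specific to that peptide. None was called by edgeR's test, against 0.109% of all genes. Calcrl, the receptor itself, lay at 299.5, 312 and 492 CPM in WT and at 486, 314 and 424 CPM in KO, and Ramp2, its partner in endothelium, at 130, 152 and 277 CPM in WT and 194, 127 and 179 CPM in KO. Both overlapped between genotypes. Ramp3, the alternative partner, was lower in every KO library, at 3.26, 3.08 and 5.67 CPM in WT and 1.46, 2.80 and 2.86 CPM in KO (log2 fold change -0.74, SE 0.36, edgeR adjusted p = 0.516), and without WT replicate 3 its log2 fold change was -0.43.

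**Figure D5:**
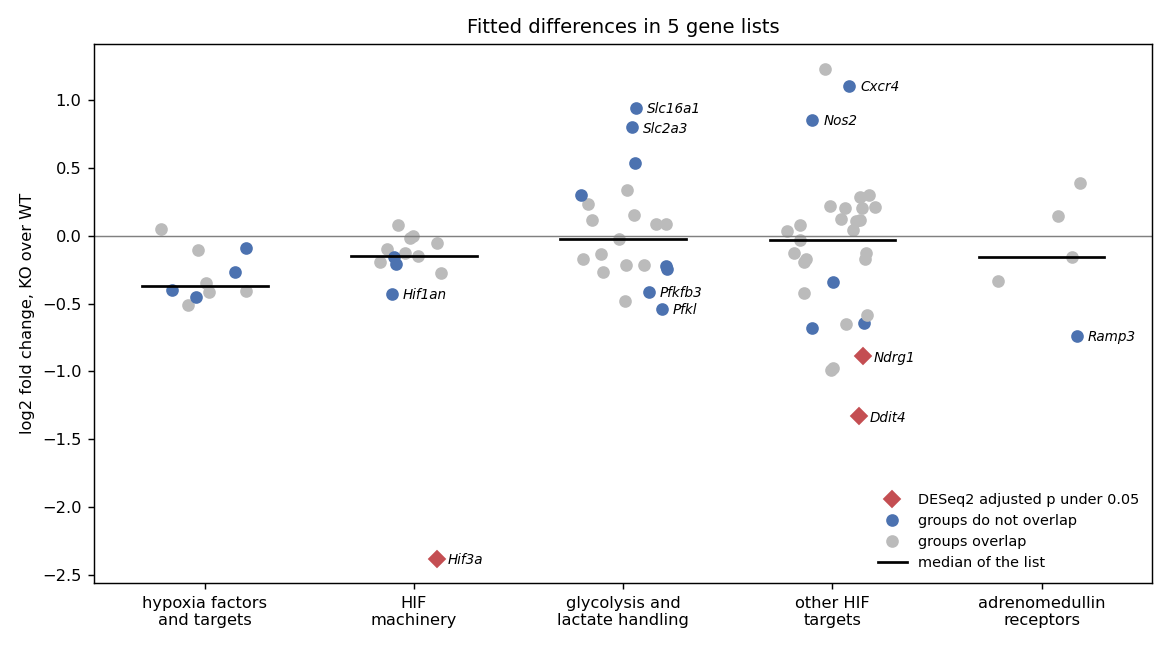
Fitted log2 fold change of KO over WT for each gene of 5 lists, with the median of each list as a black line. Red diamonds are the 3 genes called by DESeq2, blue points are genes whose groups do not overlap and grey points are the rest; the medians run from -0.37 for the 10 hypoxia genes to -0.02 for glycolysis.

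Genes of stress responses were fitted in the same direction as most of the 10 hypoxia genes. Over all genes 45.9% were fitted below 0, and edgeR's test called 0.109%. The 7 heat shock genes had a summed level of 490 to 603 CPM in WT and 169 to 214 CPM in KO, all 7 were fitted below 0 and 3 were called lower by edgeR's test (Hspa1b, Hsph1 and Hspb1, named after their values were seen). The 8 immediate early genes summed to 334 to 364 CPM in WT and 241 to 308 CPM in KO, with 7 fitted below 0 and 0 called. Markers of B cells were the other way, at 8.27 to 20.8 CPM summed over 5 genes in WT and 67.7 to 72.8 CPM in KO, with Cd79a and Ms4a1 called higher (2 genes, also named after the fact), and 5 T cell markers summed to 3.99 to 9.83 CPM in WT and 11.1 to 15.6 CPM in KO. Endothelial markers overlapped between genotypes, with 11 of 13 fitted above 0 and 0 called. The part of stress genes or of cell make-up in the levels of Hif1a, Egln1, Ldha, Bnip3 and Ddit4 was not tested.

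The remaining marker lists overlapped between genotypes in their summed CPM, and no gene of any list was at 0 in all libraries. In WT and KO respectively the sums ran over 204 to 577 and 313 to 555 for general capillary cells, 214 to 327 and 241 to 436 for aerocytes, and 592 to 1360 and 1058 to 1534 for alveolar type I cells. Club and ciliated cell markers summed to 10143 to 23993 CPM in WT and 21846 to 35241 CPM in KO. Those of macrophages ran over 116 to 319 and 159 to 396, of neutrophils 27.0 to 70.0 and 35.9 to 39.6, and of mesenchyme 361 to 707 and 466 to 673. Erythroid genes summed to 61.1 to 100.4 CPM in WT and 65.3 to 102 CPM in KO, and cardiac muscle genes to 7.59 to 40.1 and 11.2 to 16.5.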

How the data were processed

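Strand-specific mRNA libraries were made from total RNA with the KAPA HyperPrep kit. Per the labels and file headers, the authors aligned reads to mm10 (GRCm38) with STAR 2.5.4b and deposited whole-number counts per gene from featureCounts (Subread 2.0.0), unique alignments counted by strand over exons, 1 table per library. Reads of near-identical copies were dropped.

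All 6 tables were joined by Ensembl identifier (47224 of 47729 with a symbol). edgeR 4.0.16 (R 4.3.3) filtered genes by filterByExpr, scaled libraries by TMM and tested each gene with the quasi-likelihood test (default options, genotype as the only term, common biological coefficient of variation 0.256), with Benjamini-Hochberg adjustment over 14625 genes and a threshold of 0.05. DESeq2 1.42.0 and limma 3.58.1 (voom) were alternatives, with other scalings and filters, the replicate number as a block and each library left out. The fit was tested on simulated data. RPKM values divide CPM by the exon length in the tables. No library pair had identical counts (chi-square per degree of freedom at least 37.0). Intervals on a library's level were not given, and the spread is over 3 libraries.

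The genes, lists and tests were chosen with earlier results of these data known. Named genes were the 10 members, genes of each other list called by either tool or, among those whose groups do not overlap, the 2 highest and 2 lowest, markers Pecam1, Cdh5 and Sftpc (Cdh5: 178, 365 and 578 CPM in WT and 753, 340 and 499 in KO), and the 3 nearest profiles. Calcrl and Ramp2 were named after their values were seen. The leene transcripts were not analysed here.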

Additional observations from a re-analysis of the deposited data

How the results depend on the processing

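With 3 libraries per genotype and as few as 20 counts for Adm, 32 for Egln3 and 33 for Ankrd37, the differences fitted for these genes were not detectable over the spread. Over all genes, the count called was 16 (5 higher, 11 lower) and became 187 with DESeq2 (88 higher, 99 lower), 26 with limma-voom, 211 with the likelihood ratio test (124 higher, 87 lower), 26 with RLE scaling, 31 with upper-quartile scaling, 123 with total-count scaling (61 higher, 62 lower), 114 with totals without mitochondrial genes (44 higher, 70 lower) and 152 with no filter on low counts (87 higher, 65 lower). Leaving out single libraries gave 0 to 791 calls, the 791 (660 higher, 131 lower) being those of the fit that omits WT replicate 2, and omitting KO replicate 1, 2 or 3 gave 0 by edgeR's quasi-likelihood test, with 986 to 1112 genes at an unadjusted p under 0.05. Of the other pathway genes, where the main count was 0, DESeq2 called 3, the likelihood ratio test 2, upper-quartile scaling 1, total counts 2, totals without mitochondrial genes 3 and no filter 3, and leaving out libraries gave 0 to 6. Of the 10 hypoxia genes 0 were called in any setting other than without WT replicate 2, which called 1, Slc2a1 (range 0 to 1). Total-count scaling moved the median of the 10 from -0.37 to -0.52 and totals without mitochondrial genes to -0.55, while the medians of all genes moved from 0.03 to -0.13 and -0.18. Relative to those the 10 lay at -0.41, -0.38 and -0.37. Slc2a1 changed sign, from 0.05 to -0.039 under total counts and -0.035 under totals without mitochondrial genes, which is above the all-gene median in each case, and ran from -0.34 to 1.13 as libraries were left out. Epas1 ran from -0.27 to 0.015, the latter without WT replicate 1. The number of the 10 genes with groups apart was 4 to 6 when a library was left out, an alternative added after seeing the data. Groups that are apart stay apart when a library is removed, so this number could not fall below 4. Fewer libraries also separate more easily, and the share over all genes was not computed for these settings, so the range does not measure stability. The replicate numbers did not pair the libraries: same-numbered libraries had deviations correlated at -0.08, 0.22 and 0.01, and of the WT libraries only replicate 2 correlated best with its own number. With the replicate block 0 genes were called by edgeR's quasi-likelihood test, with 1776 at an unadjusted p under 0.05. The cause of these shifts was not tested.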
